A study of Homo sapiens with 7 samples.

Results

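The genes described here are 47 genes of DNA double-strand break and interstrand crosslink repair, chosen by name from the gene symbols of the deposited expression table. The table gives values for 11408 genes, and 46 of the 47 are among them. NHEJ1 was not analysed here. The libraries were made from the human acute myeloid leukemia line MOLM13, with 4 of them labelled as ZFP36L2 knockout and 3 as control. The 4 come from cells transduced with guide RNAs against ZFP36L2, 2 libraries for each of 2 guides, and the 3 from cells transduced with the non-targeting guide sgRosa. In both groups poly(A)-selected RNA was taken 6 days after transduction, so the controls share the transduction, the medium and the time in culture. The deposited tables name the ZFP36L2 guides 3 and 5, and those names are used below; the 4 together are called the guide libraries. The source of the nuclease, any selection of transduced cells and the share of cells with a cut allele are not given in the sources used here. Nothing in the labels says that replicates were separate cultures, so p-values measure the spread between these libraries, which may be technical.

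A double-strand break is sensed by kinases and by a nuclease complex that binds the ends. The ends are then either joined directly, with the Ku and DNA-PK proteins, or resected and repaired by homologous recombination, in which BRCA proteins act on the single-stranded DNA. Crosslinks between the strands are recognised by the Fanconi anemia proteins and are passed on to the recombination proteins during replication. Recombination needs a sister chromatid, and many of its genes are induced at the entry into S phase. ZFP36L2 recognises AU-rich stretches of 3′ untranslated regions and speeds the decay of the mRNAs that carry them.

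Reads assigned to genes numbered between 28088053 and 38807816 in the guide libraries and between 16907955 and 25164359 in control; the guide libraries are the deeper ones, and the part of depth in the results was not tested. A single read was worth 0.0261 to 0.0540 CPM, the unit of counts scaled to a common library size that is used for levels below. The lowest count of any repair gene in any library was 96 reads. The reads carry no molecular identifiers, so a count limits counting error only. A guide cut need not remove the transcript, and ZFP36L2 itself had 1132 and 1353 CPM with guide 3 and 734 and 689.7 CPM with guide 5, against 337, 334 and 311 CPM in control, a log2 difference of 1.52 ± 0.16 (limma adjusted p = 1.28e-05), so its mRNA does not show that the gene was lost. The myeloid identity of the line was visible in all libraries, with all 10 myeloid markers measured; 6 of them rose and 2 fell, and their summed level was 11373 to 20874 CPM in the guide libraries against 5242 to 8086 CPM in control. LYZ alone made up 82.5% to 88.4% of that sum in the guide libraries and 69.1% to 83.0% in control, and the other 9 markers summed to 1894.4 to 2439 CPM in the guide libraries and 1378 to 1619 CPM in control. Of the markers of other cell types, none of 5 erythroid and none of 5 B cell markers was among the genes with values, and 1 of 5 T cell, epithelial and fibroblast markers each was (CD3D, KRT18 and PDGFRB, at most 7.98 CPM in the guide libraries and 18.5 CPM in control).

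At least 1 repair gene fell in each of the 11 roles described below, and no repair gene rose, except LIG4 after a correction for GC content and length that is described further on. With both guides set against control, 30 of the 46 genes fell and 0 rose, against 20.6% of all 11408 genes that fell and 20.9% that rose, 41.4% in all (limma on log2(CPM + 0.5), two-sided, Benjamini-Hochberg adjusted p under 0.05 over all genes). The median log2 change was -0.70 over the repair genes and -0.05 over all genes. No repair gene rose at an unadjusted p under 0.05 or with limma voom on recovered reads, which called 30 falls. In 27 of the 46 genes all 4 guide libraries lay below all 3 controls, against 23.7% of all genes, and in none did they lie above, against 19.8%. Summed over the 46 genes, the level was 3760.4 and 3646 CPM with guide 3 and 5055 and 5273 CPM with guide 5, against 7033, 8961 and 6328 CPM in control. Each guide library lay below each control in this sum, and the guide 3 libraries lay below those of guide 5. Control replicate 2 held the highest level of 40 of the 46 genes, and without it 31 genes fell and 0 rose, with a median of -0.56, against 20.2% of all genes that fell and 27.0% that rose. On log2(FPKM + 0.5) of genes that reach an FPKM of 1 in 2 libraries or more, a scale on which long genes are low, 28 of the repair genes remained and 19 fell, against 19.7% of the 6783 genes kept. The share of all genes that fell moved with single libraries, to 10.2% without guide 3 replicate 2, where 24 repair genes fell, and to 9.74% without guide 5 replicate 1, where 22 fell. The proteins themselves were not measured, and in bulk RNA fewer cells in a given state and less RNA per cell cannot be told apart.

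**Figure D1:**
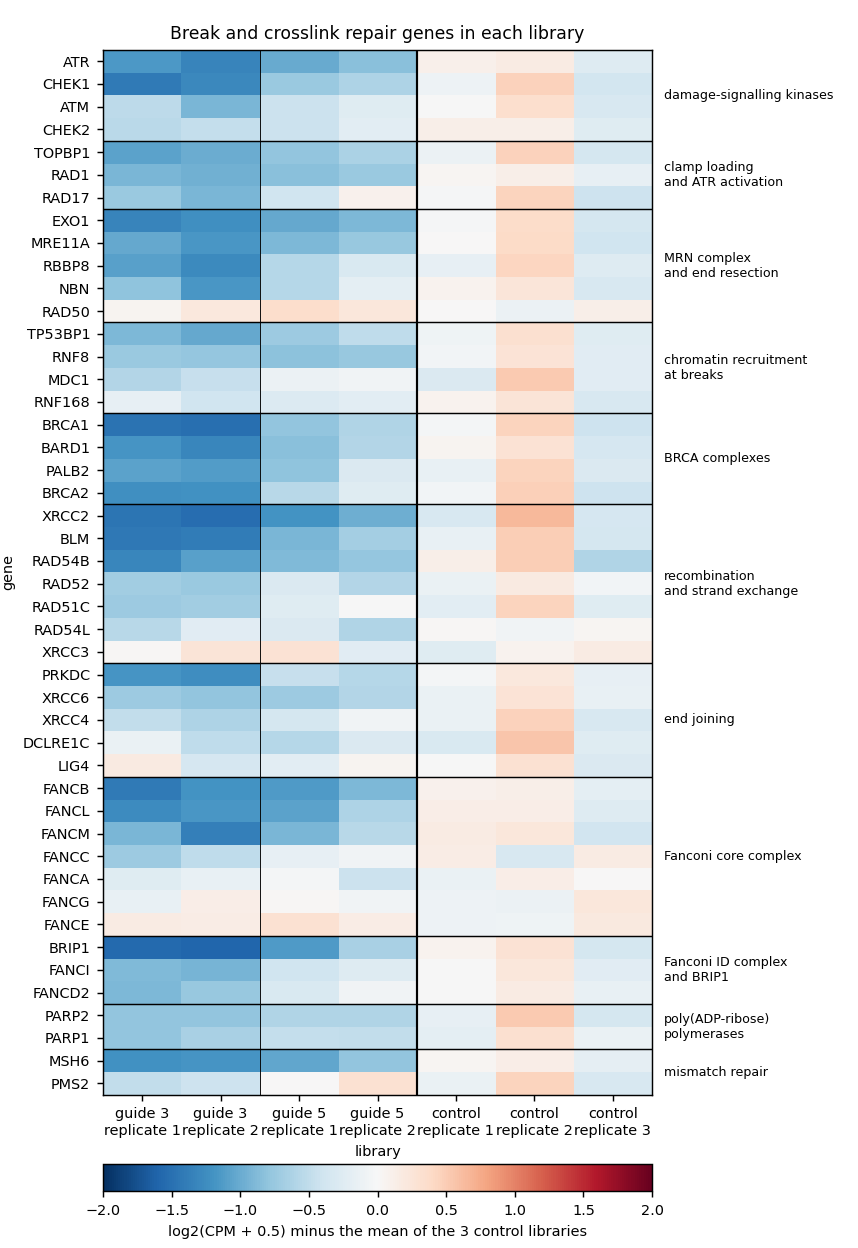
Level of each of the 46 repair genes (rows, grouped by role) in each of the 7 libraries (columns), as log2(CPM + 0.5) minus the mean of the 3 control libraries, with blue below and red above that mean. The 4 guide libraries are on the left and blue in most rows, the guide 3 pair being the darker, and control replicate 2 holds the highest level of 40 of the 46 genes.

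The 5 largest falls were those of XRCC2, BRIP1, FANCB, EXO1 and BLM, and with BRCA1 they are genes of strand exchange, resection, helicases and the Fanconi core. XRCC2, which takes part in strand exchange, had 16.5 and 15.8 CPM with guide 3 and 19.97 and 23.2 CPM with guide 5, against 37.1, 72.8 and 36.5 CPM in control. Both guides lay well below the lowest control, and control replicate 2 was far above the other controls. The log2 change was -1.29 ± 0.24 (limma adjusted p = 0.00137), or 0.410 times the control level. BRIP1, the helicase FANCJ that binds BRCA1, had 22.7 and 22.2 CPM with guide 3 and 30.6 and 42.7 CPM with guide 5, against 70.9, 82.3 and 52.9 CPM in control. Here too no guide library reached a control, and the change was -1.23 ± 0.20 (adjusted p = 0.000534). FANCB, a scaffold of the Fanconi core complex, was a low gene at 5.43 and 6.43 CPM with guide 3 and 6.77 and 8.02 CPM with guide 5, against 16.3, 16.7 and 13.3 CPM in control. Its groups were far apart and tight, with a change of -1.16 ± 0.20 (adjusted p = 0.000739).

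Promoter sequences are shown for 4 of these genes because E2F factors and the CCAAT-binding factor NF-Y are known regulators of genes induced at the start of S phase. Each window runs from 250 bases before to 50 bases after a RefSeq transcription start in GRCh38.p14, 5′ to 3′ on the gene's strand, and capitals mark E2F and CCAAT words. The words searched on both strands were TTTCCCGC, TTTCGCGC, TTTGCCGC and TTTGGCGC for E2F, CCAAT for NF-Y, and TTTGAA and TTCGAA for the CHR element of late cell-cycle genes; none of these words contains another. XRCC2 (chr7:152676092-152676391, minus strand) holds an E2F word whose first base is 21 bases past the start, and EXO1 (chr1:241847954-241848253, plus strand) holds one 4 bases past it. BRIP1 (chr17:61863479-61863778, minus strand) and BLM (chr15:90717096-90717395, plus strand) hold no E2F word and 3 CCAAT words each, and BRIP1 also holds 1 CHR word, left in lower case. No E2F or CCAAT word was found in the window of FANCB.
XRCC2: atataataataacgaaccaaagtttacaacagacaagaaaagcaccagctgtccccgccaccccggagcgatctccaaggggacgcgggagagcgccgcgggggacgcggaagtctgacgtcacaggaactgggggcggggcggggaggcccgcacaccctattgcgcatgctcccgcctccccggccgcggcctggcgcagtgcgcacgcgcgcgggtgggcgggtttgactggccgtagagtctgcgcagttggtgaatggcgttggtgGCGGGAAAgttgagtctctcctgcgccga
EXO1: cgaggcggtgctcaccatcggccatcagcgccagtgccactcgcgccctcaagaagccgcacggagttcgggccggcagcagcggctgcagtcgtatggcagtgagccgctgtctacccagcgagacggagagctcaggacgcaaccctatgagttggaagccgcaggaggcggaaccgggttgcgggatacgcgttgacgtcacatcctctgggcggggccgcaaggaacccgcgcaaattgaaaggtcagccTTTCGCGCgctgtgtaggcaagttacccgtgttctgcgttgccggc
BRIP1: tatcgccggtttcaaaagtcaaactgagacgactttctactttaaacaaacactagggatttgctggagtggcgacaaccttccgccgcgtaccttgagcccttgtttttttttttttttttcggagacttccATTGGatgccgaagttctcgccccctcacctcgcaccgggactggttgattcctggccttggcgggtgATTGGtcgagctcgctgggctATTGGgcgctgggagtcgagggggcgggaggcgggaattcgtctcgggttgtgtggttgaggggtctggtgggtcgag
BLM: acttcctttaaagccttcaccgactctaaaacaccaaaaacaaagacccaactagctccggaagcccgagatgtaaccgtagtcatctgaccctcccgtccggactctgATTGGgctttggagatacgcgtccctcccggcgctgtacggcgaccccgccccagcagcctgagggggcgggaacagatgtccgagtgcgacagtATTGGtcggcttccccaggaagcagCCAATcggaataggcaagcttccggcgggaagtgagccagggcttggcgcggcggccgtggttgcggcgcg

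RefSeq windows were matched by symbol for 42 of the repair genes and for 8978 of all genes, a gene with several windows being counted once. An E2F word was present in 9 of the 42 repair genes (21.4%) and in 6.92% of all genes; the 9 are XRCC2, XRCC6, FANCA, FANCC, FANCD2, EXO1, MSH6, PMS2 and TOPBP1. The fallen genes held one in 6 of 26 cases. A CCAAT word was present in 22 of 42 (52.4%) and in 43.8% of all genes, and a CHR word in 6 of 42 (14.3%) and in 15.6%. The E2F word was present among genes that fell, such as XRCC2 and EXO1, and among genes that did not pass the threshold, such as FANCA and PMS2. A match describes the letters of the window and no factor's binding was measured.

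Of the damage-signalling kinases, ATR, CHEK1 and ATM fell and CHEK2 did not pass; differences between these genes were not tested. ATR, the kinase that answers single-stranded DNA at stalled forks, had 47.8 and 42.2 CPM with guide 3 and 52.4 and 59.6 CPM with guide 5, against 114, 119 and 88.8 CPM in control. The groups were separated, and the change was -1.08 ± 0.17 (limma adjusted p = 0.000476). Its effector CHEK1 had 35.1 and 38.1 CPM with guide 3 and 55.9 and 60.9 CPM with guide 5, against 87.5, 130.1 and 73.1 CPM in control, all guide libraries again below all controls, with a change of -1.02 ± 0.20 (adjusted p = 0.00211). ATM, the kinase activated at double-strand breaks, had 122 and 93.5 CPM with guide 3 and 131 and 148 CPM with guide 5, against 174, 221 and 141.5 CPM in control. The higher guide 5 library lay above the lowest control, and the change of -0.52 ± 0.19 was close to the threshold (adjusted p = 0.0423); the call was lost in 10 of 20 alternative settings, 6 of them without 1 library (control replicate 1 or 2 or any one guide library, adjusted p up to 0.182). CHEK2, the effector kinase of ATM, had 14.7 to 18.6 CPM in the guide libraries against 18.2 to 23.4 CPM in control and did not pass (-0.41 ± 0.19, adjusted p = 0.0918). CHEK2 has close pseudogene copies, so its count is uncertain.

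Of the proteins that load the checkpoint clamp and switch ATR on, RAD1 and TOPBP1 fell. RAD1, a subunit of the clamp, had 33.9 and 33.0 CPM with guide 3 and 35.9 and 38.2 CPM with guide 5, against 66.1, 70.2 and 57.4 CPM in control, a narrow range within each group and a change of -0.86 ± 0.17 (adjusted p = 0.00167). TOPBP1, the direct activator of ATR, had 126 and 134 CPM with guide 3 and 153 and 172 CPM with guide 5, against 246, 367 and 208 CPM in control, with a change of -0.87 ± 0.20 (adjusted p = 0.0046). RAD17, the clamp loader, had 34.2 and 30.2 CPM with guide 3 and 43.2 and 60.7 CPM with guide 5, against 56.0, 78.2 and 42.6 CPM in control. The second guide 5 library lay among the controls, and the change of -0.49 ± 0.22 did not pass with both guides (adjusted p = 0.0897), although it did with guide 3 alone (-0.82 ± 0.26, adjusted p = 0.0261).

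In the group that senses and resects broken ends, 4 of 5 genes fell and RAD50 stood apart. The nuclease MRE11A had 44.8 and 40.5 CPM with guide 3 and 49.1 and 53.6 CPM with guide 5, against 92.4, 119 and 69.6 CPM in control, with separate groups and a change of -0.96 ± 0.20 (adjusted p = 0.00243). NBN, the adaptor of the same MRE11-RAD50-NBN complex, had 211 and 164 CPM with guide 3 and 249 and 320.3 CPM with guide 5, against 388, 437 and 295 CPM in control. The highest guide 5 library lay above the lowest control, and the change was -0.68 ± 0.19 (adjusted p = 0.0131). NBN did not pass without control replicate 1, guide 3 replicate 2 or guide 5 replicate 1 (adjusted p up to 0.0735) or after correction for GC content and length. RAD50, the third subunit of the complex, had 6.01 and 6.77 CPM with guide 3 and 7.55 and 6.85 CPM with guide 5, against 5.83, 5.28 and 6.30 CPM in control. The groups overlapped, with a value of 0.21 ± 0.20 that did not pass (adjusted p = 0.407). In GENCODE 29, 79.7% of the exon bases of RAD50 are shared with AC116366.3 on the same strand; how shared reads were counted is not stated. RBBP8, also called CtIP, starts resection and had 58.2 and 51.1 CPM with guide 3 and 83.8 and 101 CPM with guide 5, against 111, 168 and 104 CPM in control. Its guide 3 libraries were the lowest and the higher guide 5 library came just under the controls, with a change of -0.81 ± 0.20 (adjusted p = 0.00623). EXO1, the exonuclease that extends it, had 33.0 and 35.2 CPM with guide 3 and 40.7 and 44.4 CPM with guide 5, against 82.3, 108 and 65.2 CPM in control, and changed by -1.12 ± 0.19 (adjusted p = 0.000782).

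Of the 4 proteins that gather on chromatin around a break, TP53BP1 and RNF8 fell. TP53BP1, which shields ends from resection, had 31.2 and 28.5 CPM with guide 3 and 35.5 and 41.1 CPM with guide 5, against 55.5, 73.5 and 49.7 CPM in control, and fell with separate groups (-0.79 ± 0.19, adjusted p = 0.00551). RNF8, the first ubiquitin ligase of the pathway, had 26.4 and 25.8 CPM with guide 3 and 25.1 and 26.3 CPM with guide 5, against 43.2, 54.4 and 37.9 CPM in control. Its guide libraries were close together and below each control, and it fell with guide 3 (-0.76 ± 0.22, adjusted p = 0.0154) and with guide 5 (-0.79 ± 0.22, adjusted p = 0.0241). RNF168, the ligase that acts after RNF8, had 21.3 and 18.04 CPM with guide 3 and 19.8 and 20.7 CPM with guide 5, against 25.1, 28.6 and 19.1 CPM in control, overlapping groups and a value of -0.26 ± 0.19 (adjusted p = 0.293). MDC1, which reads the phosphorylated histone at the break, had 166 to 239.9 CPM in the guide libraries against 204 to 362 CPM in control, a value of -0.31 ± 0.20 (adjusted p = 0.237). Exons of TUBGCP4 on the other strand cover 28.7% of the exon bases of TP53BP1, and whether reads were counted by strand is not stated.

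All 4 genes of the BRCA complexes fell. BRCA1, a ubiquitin ligase and recombination mediator (chr17:43044295-43170245 in GRCh38, minus strand), had 75.4 and 73.9 CPM with guide 3 and 122 and 139.6 CPM with guide 5, against 206, 289 and 159 CPM in control. The guide libraries lay below all controls and those of guide 3 below those of guide 5, with a change of -1.10 ± 0.20 (limma adjusted p = 0.00124). BARD1, its obligate partner, had 20.4 and 18.8 CPM with guide 3 and 26.2 and 31.2 CPM with guide 5, against 48.9, 57.4 and 37.2 CPM in control, with the same order of groups and a change of -0.98 ± 0.19 (adjusted p = 0.00203). PALB2, which bridges BRCA1 to BRCA2, had 23.8 and 22.8 CPM with guide 3 and 28.6 and 40.9 CPM with guide 5, against 45.1, 68.3 and 41.3 CPM in control, and the highest guide 5 library came just under the lowest control; its change was -0.82 ± 0.21 (adjusted p = 0.00938). Without guide 5 replicate 1 PALB2 missed the threshold (adjusted p = 0.0546). BRCA2, a mediator of strand exchange, had 66.3 and 67.2 CPM with guide 3 and 106 and 132 CPM with guide 5, against 150.2, 217 and 117 CPM in control. There the second guide 5 library lay above control replicate 3, and the change was -0.81 ± 0.21 (adjusted p = 0.00893). With guide 5 alone BARD1 passed (-0.71 ± 0.23, adjusted p = 0.047), while BRCA1 (-0.70 ± 0.24, adjusted p = 0.0579), PALB2 and BRCA2 did not.

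Of the 7 other recombination genes, XRCC2, BLM, RAD54B and RAD52 fell. BLM, the helicase that dissolves joined recombination intermediates, had 60.2 and 61.5 CPM with guide 3 and 85.7 and 101 CPM with guide 5, against 146, 229 and 127 CPM in control, and a change of -1.10 ± 0.21 (adjusted p = 0.00137). RAD54B, a translocase related to RAD54L, was low at 2.93 and 3.50 CPM with guide 3 and 4.12 and 4.45 CPM with guide 5, against 8.69, 11.5 and 5.08 CPM in control, and changed by -1.01 ± 0.26 (adjusted p = 0.00901); 59.1% of its exon bases are shared with FSBP on the same strand. RAD52, which anneals single strands, had 8.23 and 7.95 CPM with guide 3 and 11.1 and 8.94 CPM with guide 5, against 12.5, 15.6 and 13.1 CPM in control, and fell by 0.58 on the log2 scale (SE 0.19, adjusted p = 0.0307). Without any one guide library RAD52 did not pass (adjusted p up to 0.127). RAD54L, a DNA translocase of recombination, had 28.8 and 36.4 CPM with guide 3 and 34.9 and 28.0 CPM with guide 5, against 43.1, 40.7 and 43.9 CPM in control. All its guide libraries lay below the controls, yet the value of -0.41 ± 0.18 did not pass (adjusted p = 0.0755). RAD51C, which binds XRCC3, had 33.1 to 55.0 CPM in the guide libraries against 46.7 to 75.4 CPM in control and did not pass with both guides (-0.42 ± 0.20, adjusted p = 0.11). Nor did XRCC3 (0.09 ± 0.19, adjusted p = 0.736). XRCC3 had 36.3 and 42.7 CPM with guide 3 and 43.4 and 30.2 CPM with guide 5, against 30.1, 37.5 and 39.7 CPM in control, with no order between the groups, and 76.7% of its exon bases lie opposite exons of KLC1.

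Of the 5 end-joining genes, PRKDC and XRCC6 fell. PRKDC, the catalytic subunit of DNA-PK and the repair gene with the highest CPM, had 1179.8 and 1132 CPM with guide 3 and 1937 and 1797 CPM with guide 5, against 2597, 3084 and 2379.6 CPM in control. Groups were separated and the 2 guides stood apart, with a change of -0.86 ± 0.17 (adjusted p = 0.00212). XRCC6, the Ku70 subunit that binds ends, had 319.9 and 306 CPM with guide 3 and 318 and 351 CPM with guide 5, against 482, 639 and 476 CPM in control. Its 4 guide libraries were alike and below each control, and it fell with both guides together (-0.71 ± 0.17, adjusted p = 0.00603). LIG4, the ligase that closes the break, had 56.3 and 39.2 CPM with guide 3 and 42.9 and 51.6 CPM with guide 5, against 49.4, 61.2 and 40.6 CPM in control, with overlapping groups and a value of -0.08 ± 0.20 (adjusted p = 0.77). Its partner XRCC4 had 21.4 to 31.7 CPM in the guide libraries against 26.4 to 45.8 CPM in control and did not pass (-0.38 ± 0.21, adjusted p = 0.16). The nuclease Artemis, DCLRE1C, had 28.1 to 38.4 CPM in the guide libraries against 34.1 to 61.9 CPM in control and did not pass either (-0.38 ± 0.23, adjusted p = 0.195). A test of the difference between PRKDC and LIG4 was not run.

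In the Fanconi core complex, which attaches ubiquitin to FANCD2 and FANCI at a crosslink, 3 of 7 genes fell. Those were FANCB, FANCL, the ubiquitin ligase of the complex, and FANCM, a translocase that anchors it to DNA. FANCL had 5.92 and 6.33 CPM with guide 3 and 6.75 and 9.42 CPM with guide 5, against 16.2, 16.2 and 12.3 CPM in control, with separate groups and a change of -1.03 ± 0.21 (adjusted p = 0.00226); FANCM had 19.03 and 13.7 CPM with guide 3 and 18.9 and 24.6 CPM with guide 5, against 40.7, 42.4 and 27.6 CPM in control, and changed by -0.94 ± 0.22 (adjusted p = 0.00482). The scaffold subunits FANCA, FANCC, FANCE and FANCG did not pass, with log2 values of -0.22, -0.37, 0.19 and -0.02 and adjusted p of 0.327, 0.14, 0.375 and 0.95. FANCA had 39.9 to 52.6 CPM in the guide libraries against 49.3 to 59.3 CPM in control, FANCC 14.3 to 22.9 CPM in the guide libraries against 19.2 to 27.0 CPM in control and FANCE 37.0 to 41.1 CPM in the guide libraries against 30.7 to 37.9 CPM in control. FANCG had 27.7 and 33.6 CPM with guide 3 and 31.2 and 29.4 CPM with guide 5, against 28.6, 28.1 and 36.0 CPM in control, overlapping ranges. The 4 that did not pass have transcripts of 55.4%, 50.6%, 57.9% and 58.1% GC, and FANCB, FANCL and FANCM of 36.7%, 39.3% and 37.7%.

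All 3 genes downstream of the core complex fell. FANCI had 116 and 112 CPM with guide 3 and 161 and 178 CPM with guide 5, against 212, 251 and 183 CPM in control, just separated from control, with a change of -0.62 ± 0.17 (adjusted p = 0.0108). Its partner FANCD2 had 43.5 and 47.9 CPM with guide 3 and 65.8 and 77.5 CPM with guide 5, against 80.7, 91.1 and 73.0 CPM in control. Here the second guide 5 library lay above control replicate 3, and the change was -0.51 ± 0.17 (adjusted p = 0.0291). FANCD2 has pseudogene copies, so its count is uncertain, and its call was lost in 8 of 20 alternatives. Without control replicate 1 or any one guide library FANCD2 did not pass (adjusted p up to 0.143), nor did FANCI without guide 3 replicate 2 or guide 5 replicate 1 (adjusted p up to 0.061). With BRIP1, these genes fell with guide 3 (-0.91, -0.83 and -1.57), and with guide 5 only BRIP1 passed (-0.89 ± 0.24, adjusted p = 0.0214).

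Both poly(ADP-ribose) polymerases, which mark DNA nicks and breaks, fell. PARP1 had 288 and 317 CPM with guide 3 and 355 and 353 CPM with guide 5, against 435, 622 and 452 CPM in control, and changed by -0.60 ± 0.17 (adjusted p = 0.016). PARP2 had 25.3 and 25.4 CPM with guide 3 and 29.1 and 28.9 CPM with guide 5, against 39.2, 63.5 and 34.7 CPM in control, and changed by -0.70 ± 0.21 (adjusted p = 0.0209). PARP1 did not pass without guide 3 replicate 1 or without either guide 5 library (adjusted p up to 0.0665), nor PARP2 without any one guide library (adjusted p up to 0.0637). For both genes the groups did not overlap, and neither passed with guide 5 alone. Of the mismatch repair genes counted with them, MSH6, which recognises mispaired bases, had 97.1 and 98.6 CPM with guide 3 and 109 and 129.7 CPM with guide 5, against 229.8, 247 and 198 CPM in control. It had the smallest adjusted p of the repair genes (0.000351), with a change of -1.05 ± 0.16. PMS2, which nicks the strand to be repaired, had 10.2 and 10.8 CPM with guide 3 and 14.8 and 18.2 CPM with guide 5, against 13.3, 20.1 and 11.6 CPM in control, with overlapping groups and a value of -0.15 ± 0.22 (adjusted p = 0.607), and it too has close pseudogene copies.

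**Figure D2:**
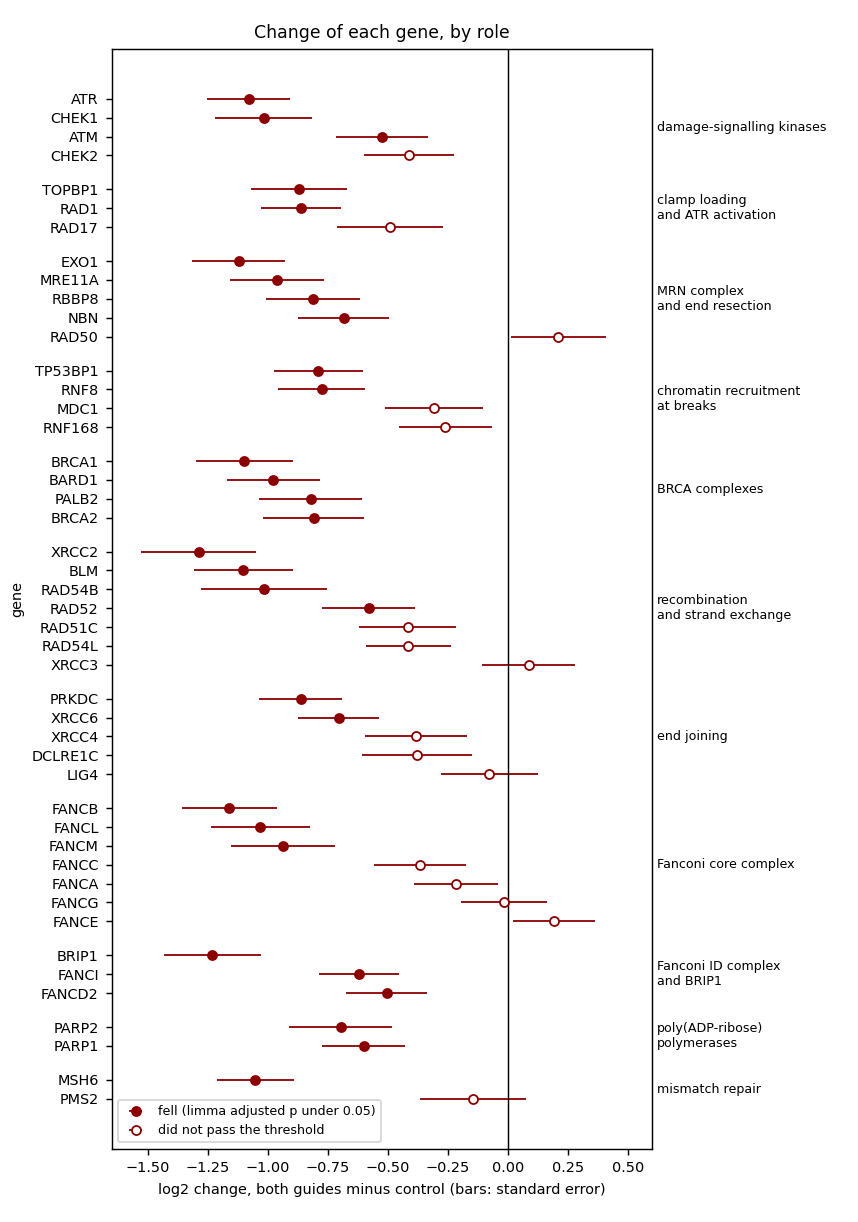
Log2 change of each repair gene with both guides minus control, from limma on log2(CPM + 0.5), in rows grouped by role; points are estimates, bars standard errors, and filled points passed an adjusted p of 0.05. The 30 filled points run from -1.29 for XRCC2 to -0.51 for FANCD2, and the 16 open points from -0.49 for RAD17 to 0.21 for RAD50.

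The change was larger in value with guide 3 than with guide 5. With guide 3, 33 repair genes fell and 0 rose, against 18.9% of all genes that fell and 21.2% that rose, and the median was -0.87. With guide 5, 13 fell and 0 rose, against 7.68% of all genes that fell and 12.2% that rose, 19.9% in all, and the median was -0.46. No repair gene rose with either guide at an unadjusted p under 0.05 or with voom, which called 33 and 14 falls. The 13 genes that fell with each guide were ATR, BARD1, MRE11A, XRCC2, XRCC6, RNF8, FANCB, FANCL, BRIP1, BLM, EXO1, MSH6 and RAD1. The 2 comparisons share their 3 control libraries. Tested directly, guide 5 minus guide 3 gave 0 repair genes that passed in either direction (limma, against 0.351% of all genes higher and 0.0614% lower, 0.412% in all), and 0 with voom. At an unadjusted limma p under 0.05 there were 12, all higher with guide 5. The share of all genes at that unadjusted p is not given, so the 12 are not read as a trait of the repair genes. The value was higher with guide 5 in 40 of the 46 genes, against 46.5% of all genes, and the median difference was 0.35, against -0.03 over all genes. In 35 genes both guide 3 libraries lay below both guide 5 libraries. How many of all genes show this order is not given, so the 35 are not read as a trait of the repair genes.

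These counts by guide moved with single libraries and settings. The share of all genes that fell moved as well. With both guides together it was 20.6%, but 15.4% without control replicate 1 and 25.9% without control replicate 3. It was 29.6% with the GC and length correction. Such shares are not given for the fits by guide below. The counts there are therefore not read as a trait of the repair genes. With 1 guide 5 library left out, the other being assumed to vary like the other groups, 0 (without replicate 1) and 2 (without replicate 2) repair genes fell with guide 5; without control replicate 1 there were 6, without control replicate 3 there were 20, and without either guide 3 library 8. Without guide 3 replicate 2, 15 genes fell with guide 3. Correction for GC content and length gave 24 falls with guide 5 and quantile normalization 21, and guide 5 and control fitted without guide 3 gave 8. The difference between the guides was called for 16 genes when the 4 guide libraries were fitted alone and for 8 without control replicate 2, all of them higher with guide 5. The myeloid marker CD14 also ordered the libraries, at 181 and 160.1 CPM with guide 3 and 90.3 and 69.9 CPM with guide 5, against 1.46, 0.514 and 2.29 CPM in control, as did the targeted gene. Not all 10 myeloid markers went this way, 6 having risen and 2 fallen. FLT3 fell, with the reverse order. It had 252 and 242 CPM with guide 3 and 344 and 394 CPM with guide 5, and its controls had 528, 620 and 440 CPM. MPO also fell, and CD33 and PTPRC did not pass. Whether these levels have a part in the difference between the guides was not tested.

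**Figure D3:**
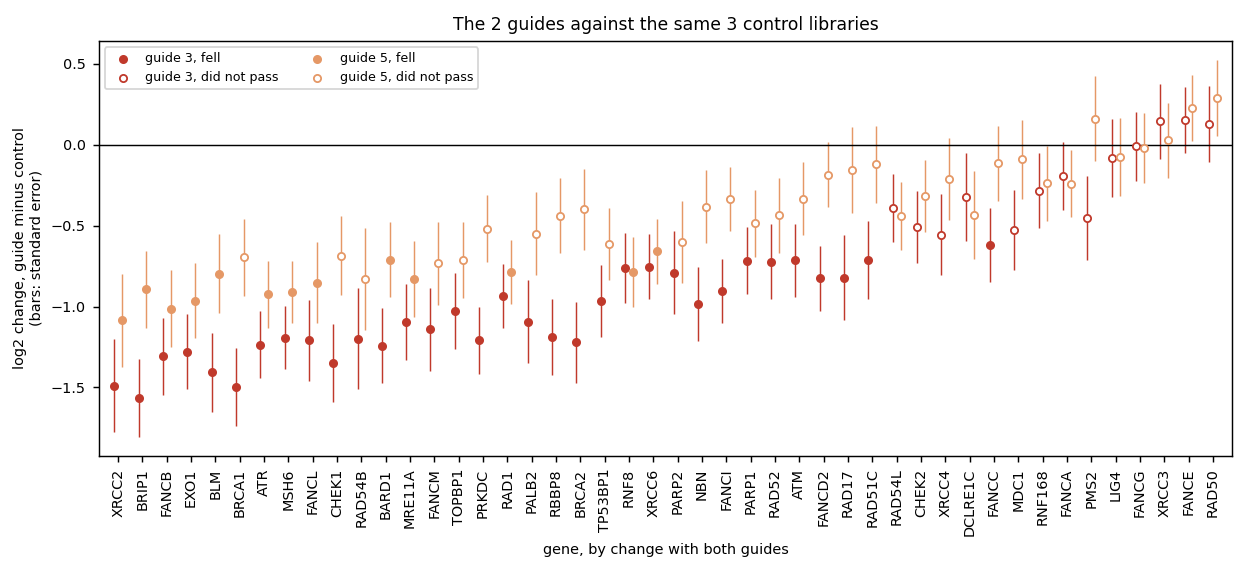
Log2 change with guide 3 (left, dark) and guide 5 (right, light) of each repair gene, minus the same 3 controls, ordered by the change with both guides; bars are standard errors and filled points passed an adjusted p of 0.05. Guide 3 shows 33 filled points and guide 5 shows 13, and RNF8, RAD54L and LIG4 are among the genes where the guides gave about the same value.

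Levels per length, ordered here by the control mean, put PRKDC and XRCC6 at the top and RAD50 at the bottom. Per kilobase of the transcript with the longest coding sequence, PRKDC stood at 112 ± 30.7 in the guide libraries and 199 ± 26.7 in control (CPM per kilobase, mean ± SD, n = 4 and 3), and XRCC6 at 119 ± 7.15 in the guide libraries and 197 ± 34.2 in control. These neighbours did not differ beyond their spread, and PARP1 came next with 82.9 ± 8.15 in the guide libraries and 127 ± 26.2 in control. NBN followed with 50.6 ± 14.2 in the guide libraries and 79.9 ± 15.4 in control and CHEK1 with 28.4 ± 7.65 in the guide libraries and 58.0 ± 17.8 in control. The order differed in the mean of the guide libraries, where XRCC6 stood above PRKDC in value and FANCI, at 29.9 ± 6.93, above CHEK1. For PRKDC the guides stood apart, with mean levels of 1156 CPM with guide 3 and 1867 CPM with guide 5. XRCC6 stood above PRKDC with guide 3 only, and with guide 5 PRKDC was the higher, as in control. At the low end, RNF168 stood at 3.73 ± 0.263 in the guide libraries and 4.54 ± 0.902 in control, RAD54B at 1.22 ± 0.220 in the guide libraries and 2.75 ± 1.05 in control and RAD50 at 0.818 ± 0.0760 in the guide libraries and 0.699 ± 0.0620 in control. RAD50 lay below the other subunits of its complex on this scale, MRE11A standing at 17.5 ± 2.10 in the guide libraries and 34.9 ± 9.21 in control. Transcript choice sets the length, so this order is approximate. RAD50 and RAD54B share 79.7% and 59.1% of their exon bases with another gene on the same strand. How such reads were counted is not stated, so their place in the order is uncertain. Exons of a gene on the other strand also cover part of the exon bases of RAD54L (25.1%, LRRC41), FANCA (23.6%, ZNF276), FANCL (18.7%, VRK2), ATR (16.4%, AC109992.1) and MSH6 (16.2%, FBXO11).

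**Figure D4:**
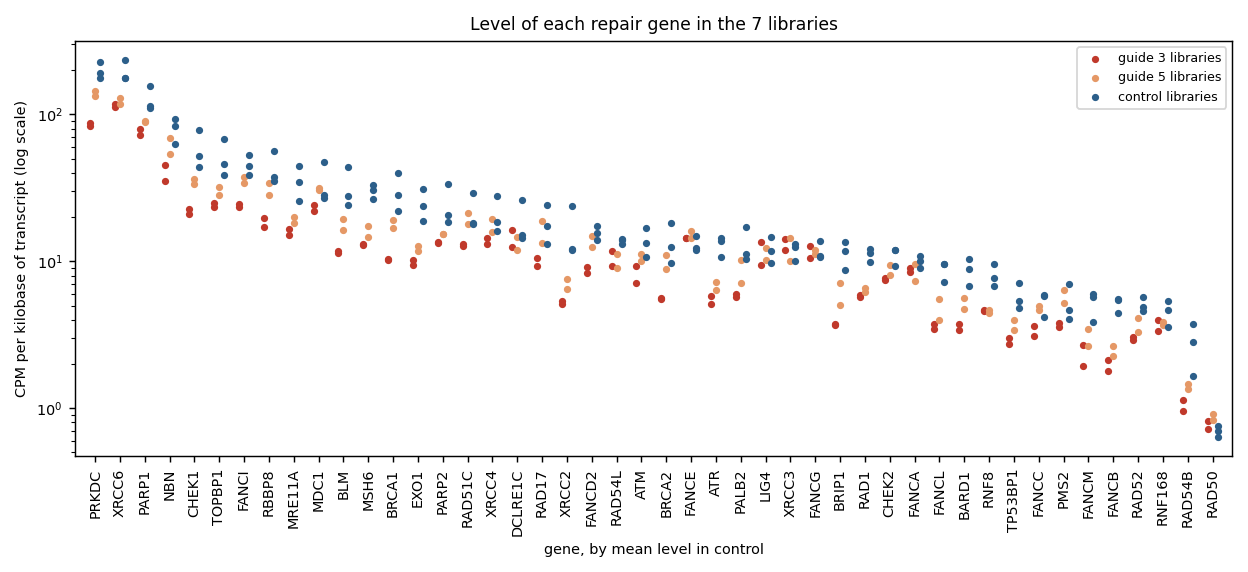
Level of each repair gene in CPM per kilobase of transcript (log axis), 1 point per library, ordered from left to right by the control mean, with guide 3, guide 5 and control points side by side. PRKDC, XRCC6 and PARP1 lie highest and RAD54B and RAD50 lowest, and guide points lie below control points for most genes.

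Repair genes known to be induced at the entry into S phase fell in 11 of 12 cases, with a median of -1.03. These are BRCA1, BRCA2, BARD1, BRIP1, RAD54L, FANCD2, FANCI, EXO1, BLM, CHEK1, MSH6 and XRCC2, and RAD54L was the one that did not pass. The 12 genes summed to 615 to 989 CPM in the guide libraries and 1166 to 1816 CPM in control. Of the other 34 repair genes 19 fell, with a median of -0.59. With the GC and length correction the medians lay closer together, at -0.73 for the 12 genes and -0.52 for the 34. There 11 of the 12 fell, and of the 34 genes 23 fell and 1 rose. The difference between the 2 sets was not tested. For these sets and the S phase and proliferation lists below, 20.6% of all genes fell and 20.9% rose. With the GC and length correction these shares were 29.6% and 17.6%. Beyond the repair genes, 19 of 29 S phase genes fell and 1 rose, with a median of -0.65; among them the replicative helicase subunit MCM6 changed by -1.05 ± 0.16 (limma adjusted p = 0.000391), and the transcription factor E2F1 by 0.54 ± 0.20 (adjusted p = 0.045). Of 8 proliferation markers 5 fell and 0 rose, at a summed 1758 to 2510.1 CPM in the guide libraries and 2343 to 4290.4 CPM in control; cyclin A2, CCNA2, changed by -0.78 ± 0.19 (adjusted p = 0.00683) and topoisomerase TOP2A by -0.77 ± 0.19 (adjusted p = 0.00796). After the GC and length correction 24 S phase genes fell and 0 rose, E2F1 no longer passing (-0.19, adjusted p = 0.266), and 3 proliferation markers fell. E2F1 also did not pass without control replicate 1, control replicate 2, guide 3 replicate 2 or either guide 5 library (adjusted p of 0.0707 to 0.216), on log2(FPKM + 0.5) of every gene (0.0564), with the same sum of CPM (0.0743) or with no mean-variance trend (0.0527). Fewer proliferation markers fell without guide 3 replicate 1, guide 3 replicate 2 or guide 5 replicate 1. In these fits the share of all genes that fell was lower as well, so the drop is not read as a trait of the markers. The part of the cell cycle in the repair genes' change was not tested, and no cell-cycle measurement was used here.

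Of 68 further break and crosslink repair genes, 27 fell and 7 rose, with a median of -0.41. For this and the lists that follow, 20.6% of all genes fell and 20.9% rose. With the GC and length correction these shares were 29.6% and 17.6%. WRN, a helicase mutated in Werner syndrome, changed by -1.13 ± 0.19 (limma adjusted p = 0.000675) and SMC5, a subunit of the SMC5/6 complex, by -1.09 ± 0.21 (adjusted p = 0.00167). C1orf86, the Fanconi core protein FAAP20, changed by 1.06 ± 0.27 (adjusted p = 0.00749). With the GC and length correction 34 of the 68 fell and 1 rose, and C1orf86 did not pass (0.30, adjusted p = 0.145). Of 23 checkpoint adaptors and effectors 11 fell and 0 rose, with ETAA1, a second ATR activator, at -1.12 ± 0.25 (adjusted p = 0.00433); 17 fell with the GC and length correction. All 5 other mismatch repair genes fell. The share of all genes that fell was also lower without a guide library, so the counts that follow are not read as a trait of these lists. Without guide 3 replicate 1, without guide 3 replicate 2 and without guide 5 replicate 1, in this order, 19, 14 and 16 of the further repair genes fell and 4, 2 and 2 rose (3 rose without control replicate 1), 7, 6 and 5 checkpoint genes fell, and 3 of the 5 mismatch repair genes fell each time.

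Base composition moved with the result and is given beside it. The median GC content of the transcripts was 42.5% for the repair genes and 49.1% for all genes, and 37 of the 46 repair genes lay below that of all genes. Across all genes, 49.3% of those in the 10% with the lowest GC content fell, and 54.5% of those in the 10% with the highest rose. Below the median GC content 28 of 37 repair genes fell, against 36.6% of all genes there, and the medians were -0.81 and -0.41; at or above it 2 of 9 fell, against 4.58% of all genes there, with medians of -0.31 and 0.33. Over the 46 genes, which share libraries, the log2 change and GC content had a Pearson r of 0.57 and a Spearman rho of 0.49, given as a description. With each library corrected by loess for transcript GC content and length, 34 repair genes fell and 1 rose, against 29.6% and 17.6% of all genes, and the medians were -0.53 and -0.13. Of the 30 genes that fell without the correction 28 fell with it, NBN and FANCD2 being the exceptions. The corrected log2 change and GC content had a Pearson r of -0.22 over the 46 genes, so the sign turned.

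The correction altered the genes at either end of the GC range. XRCC3, the repair gene with the highest GC content (62.5%), changed by -0.63 after it (adjusted p = 0.00217), and FANCG by -0.54 (adjusted p = 0.00402), FANCA by -0.60 (adjusted p = 0.00101), FANCE by -0.33 (adjusted p = 0.0205), RAD54L by -0.65 (adjusted p = 0.00603) and MDC1 by -0.58 (adjusted p = 0.00692). LIG4, at 36.2% GC, rose by 0.44 (adjusted p = 0.00544). XRCC2 (-0.99), CHEK1 (-0.86), PRKDC (-0.85) and BRCA1 (-0.80) still fell. Of all genes called, 50.4% rose without the correction and 37.2% with it. The part of base composition in the result was not tested.

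**Figure D5:**
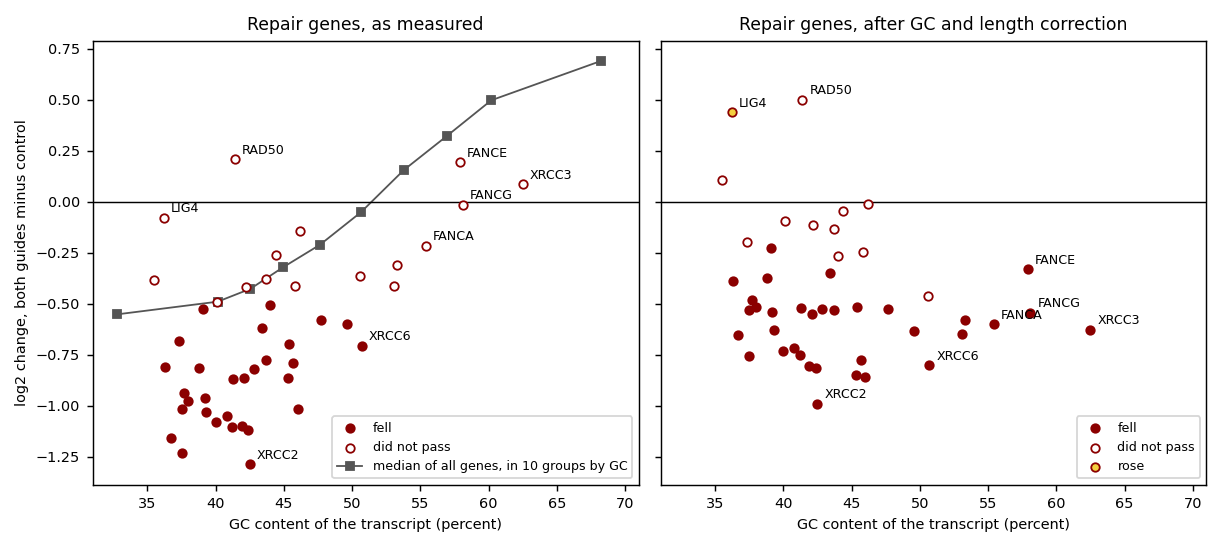
Log2 change of each repair gene, both guides minus control, against the GC content of its transcript in percent, as measured (left) and once corrected for GC content and length (right); filled points fell, open points did not pass, and LIG4 (yellow) rose. Squares are medians of all genes in 10 equal groups by GC content, drawn at the middle of each group's range; on the left most repair genes lie below them.

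AU-rich words of the kind ZFP36 proteins bind were looked for in the 3′ untranslated regions, of which GENCODE 29 gives one for each of the 46 repair genes. The word TATTTAT was present in 16 of them (34.8%) and in 31.1% of all genes with such a region. Of the 16 genes 11 fell, with a median of -0.82, and of the 30 without it 19 fell, with a median of -0.65; among all genes with the word 26.6% fell and 16.7% rose, with a median of -0.22, and among all genes without it 18.5% fell and 23.6% rose, with a median of 0.03. Before the GC correction no repair gene rose, with the word or without it. The word was also present in RAD50, MDC1, FANCA, FANCG and RAD17, which did not pass. Sites of 3 genes that fell are shown, as DNA letters with the word in capitals, to let the words be compared; the first base of each word is at base 294, 1684 and 241 of the region in the order given, and the genes lie at chr17:43044295-43170245, chr2:214725646-214809711 and chr2:58159243-58241372 in GRCh38, all on the minus strand.
BRCA1: tgctgattcatTATTTATcagccctattct
BARD1: ttgtcatttttTATTTATaacagactttaa
FANCL: ctgtggaagtgTATTTATaccaagatggag
The sites share the central letters and differ on both sides, and no binding was measured here.

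The authors' deposited table of differential expression gives 33 repair genes lower and 0 higher with guide 3 at a false discovery rate under 0.05, against 19.4% of all genes lower and 20.5% higher. The same authors' deposited table gives 14 lower and 0 higher with guide 5, against 7.81% and 11.9% of all genes. For XRCC2 the authors' deposited table has a log2 fold change of -1.60 with guide 3 and -1.18 with guide 5, for BRCA1 -1.55 and -0.74, and for LIG4 -0.08 and -0.09.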

How the data were processed

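Per the labels' protocols, poly(A) RNA from MOLM13 cells went into libraries of a directional kit that were read single-end. The submitters' processing notes name STAR (2.5.3), HTSeq, edgeR, limma and the builds GRCh38.p7 and hg38; what each did, its parameters and the strand setting are not given in the sources used here. The authors' deposited values are FPKM per library, mean CPM per group (a signal scaled by adjusted library sizes), log2 fold changes of each guide, and a p-value with a false discovery rate.

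The table lists 11581 genes; 173 without FPKM were left out. Mean CPM over mean FPKM gave the authors' gene length, which was whole to within 0.01 bases for all 11408 genes and equals the GENCODE 29 gene span less 1 base for 8064, so the FPKM are per kilobase of gene with introns. FPKM times length gave CPM, and 100% of values came out as whole reads (within 0.01). Because FPKM of long genes are near 0, log2(CPM + 0.5) of every gene was fitted with limma 3.58.1 (R 4.3.3). The fit had a mean-variance trend, 3 group means, and 4 residual and 8.78 prior degrees of freedom. Tests were two-sided, with Benjamini-Hochberg adjustment and a threshold of 0.05. On simulated counts, 81.3% of 91 genes changed 2-fold and 100% of 109 changed 4-fold were recovered, and 19 of 202 calls were false. Far fewer genes were changed there than were called in these data. GC content, lengths and 3′ untranslated regions are those of the GENCODE 29 protein-coding transcript with the longest coding sequence; promoters are from RefSeq. The GC correction used loess with a span of 0.3 in each library.

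The repair genes and the other gene lists were chosen with earlier results of these data known. Any repair gene may be named; of other lists, up to 2 of the highest and 2 of the lowest called changes were eligible. The labels number the ZFP36L2 guides 1 and 2 and the deposited columns 3 and 5, and nothing pairs them. Replicate numbers did not pair the libraries. Alternatives were the offset, scale, filter, library scaling, GC correction, replicate block, voom, the variance model, the groups fitted and leaving out each library. Counts and figures were made with pandas 2.3.3, matplotlib 3.10.9 and numpy 2.4.6 (Python 3.11.15). Some items are not reported here.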

Additional observations from a re-analysis of the deposited data

Results flagged for a closer look

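Among the 4 guide libraries, pooled over the guides, 1 repair gene was flagged for a library that stood apart. Gaps within the 3 controls are not counted here, although XRCC2 had 72.8 CPM in control replicate 2 against 37.1 and 36.5 CPM in the others. FANCE, a scaffold of the Fanconi core complex, had 41.1 CPM in guide 5 replicate 1, against 37.0, 37.0 and 37.0 CPM in the other 3 guide libraries, and its gap to them was over Dixon's limit for 4 samples. The 3 controls stood at 30.7, 31.3 and 37.9 CPM. With 46 genes tested in this way, chance alone flags about 1 in 20 groups.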

How the results depend on the processing

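Of 902 values of single repair genes under alternatives, 826 kept their direction and their side of the threshold, 16 newly passed it, 41 no longer passed, 14 moved and 5 reversed; 21 of the 30 genes that fell did so under every alternative run. Reversals came with the GC and length correction: XRCC3 -0.63, LIG4 0.44 and FANCE -0.33, and, with the replicate block added, XRCC3 -0.69 and LIG4 0.46. With that correction 1 repair gene rose with both guides, with or without the replicate block; 1 rose with guide 3, with or without the block; 24 fell with guide 5; and 1 was higher with guide 5 than with guide 3. On log2(FPKM + 0.5) of genes that reach an FPKM of 1 in 2 libraries or more, 28 of the repair genes, 19 fell with both guides and 7 with guide 5. With guide 5, quantile normalization gave 21 falls, the replicate block 20 and the compared groups alone 8. The difference between guides was called for 16 repair genes with those groups alone, 4 with the replicate block on the guides alone and 28 with crossed pairing, an alternative chosen after seeing the data; the correlation of same-numbered deviations between the guides was -0.49, and the numbers share no stated origin. Leaving out single libraries gave 22 to 32 falls with both guides, 15 to 34 with guide 3, 0 to 20 with guide 5 and 0 to 8 genes higher with guide 5 than with guide 3. Quantile normalization moved the median of all genes to -0.11 and that of the repair genes to -0.71. The cause of these differences was not tested. The FPKM filter kept fewer genes, and fits without a library or a group held fewer libraries. Shares of all genes are not set beside the counts by guide, so these counts are not read as a trait of the repair genes. Each of the 46 repair genes with values had reads in every library, the lowest count being 96 reads. That count does not cover NHEJ1, which had no value, and the part of depth in the results was not tested.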
